A study of Mus musculus with 4 samples.

Results

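The 8 genes described here are grouped under the name of the dermal matrix, although Gpc3 lies on the cell surface. They encode the fibrillar collagens Col1a1, Col1a2 and Col3a1, the fibril-associated collagen Col12a1, the proteoglycans Dcn and Gpc3, and the matricellular proteins Sparc and Postn. They were chosen by name from 10327 genes in a ribosome profiling table, with earlier values of the same 4 libraries in view, so their own differences between groups are given as descriptions without a test. All 8 were measured in every library and all 8 passed the filter on low values (1 CPM or more in at least 2 libraries), which removed 0 genes. In ribosome profiling, the pieces of mRNA that ribosomes shield from RNase, called footprints, are sequenced, and a gene's CPM is its reads per 1000000 reads counted in the library. A footprint level therefore combines how much mRNA is present with how densely ribosomes occupy it, and in bulk samples fewer cells of a type and less RNA per cell cannot be told apart.

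The libraries were made from epidermal keratinocytes of newborn mice at postnatal day 0. Control mice (Ctrl, 2 libraries) had the genotype K14Cre,Mettl14F/+, that is, a Cre transgene under the K14 promoter, which is active in basal keratinocytes, with 1 floxed and 1 unfloxed copy of Mettl14. Conditional knockout mice (cKO, 2 libraries) had K14Cre,Mettl14F/F, the same transgene with both copies floxed. Cre was thus present in both groups, no other treatment was given, and METTL14 is a core subunit of the enzyme that places N6-methyladenosine on mRNA. Whether each library is 1 animal or a pool is not stated in the labels, and p-values then measure a spread that may be technical. The comparison asks how ribosome occupancy differs when Mettl14 is deleted from the epidermis.

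Library totals ran from 542074 reads (cKO 1) to 933574 reads (Ctrl 1), and the median gene had 14 to 27 reads. Mettl14 had 26 and 17 reads in the Ctrl libraries and 5 and 4 in the cKO libraries, the order the genotypes call for, with a log2 change of -1.83 ± 0.55 (SE) that did not pass the test over all genes (limma adjusted p = 0.122). The labelled cell type was checked with 10 keratinocyte markers, whose summed level was 163557 and 146134 CPM in Ctrl 1 and Ctrl 2, and 211366 and 198665 CPM in cKO 1 and cKO 2, a sum carried by the suprabasal keratins Krt1 and Krt10. The basal markers in the list went the other way. Krt5 had 14751, 11531, 5580.4 and 5321 CPM in Ctrl 1, Ctrl 2, cKO 1 and cKO 2. It fell in cKO (log2 change -1.26 ± 0.27, SE, limma adjusted p = 0.0293), a call lost after centring (limma adjusted p = 0.0677). The call was kept with edgeR and TMM (edgeR adjusted p = 0.0175), edgeR and library totals (0.00762) and DESeq2 (DESeq2 adjusted p = 0.00295). With 1 library left out the log2 change of Krt5 ran from -1.44 to -1.08, and the call did not hold in every such fit. Krt15 and Trp63 had lower levels in both cKO libraries than in either Ctrl library without passing (log2 change -0.87 and -0.69; limma adjusted p = 0.0532 and 0.118). Krt14 had -0.59, with overlapping groups, and these 4 genes are named after their values were seen. These changes have the sign of those of the matrix genes below, and their part in them was not tested. Of 20 fibroblast markers 8 could be analysed, the interstitial collagen Col6a3 among them, and their summed level was 1026, 796, 900 and 576 CPM in the same order. Because the table lists only genes with at least 1 read in each library, the remaining 12, among them Pdgfrb, Twist2 and Prrx1, are not analysed here. The name "dermal" is therefore a label for the set, and the cells that made these 8 proteins were not identified.

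Collagens are built from 3 chains wound into a triple helix, which needs a glycine at 1 in every 3 residues along the chain. Type I collagen, made of Col1a1 and Col1a2 chains with more of the former, and type III collagen, made of Col3a1 chains, form the thick fibrils that give dermis its strength, and type XII collagen (Col12a1) lies on the surface of such fibrils. Decorin (Dcn) binds and spaces the fibrils, SPARC (Sparc) binds collagen and calcium, periostin (Postn) links collagen to other matrix proteins, and glypican 3 (Gpc3) is a heparan sulfate proteoglycan held on the cell surface by a lipid anchor. Fibroblasts are the main known source of most of them in skin.

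The repeat that defines a collagen is visible in the coding sequences that these footprints come from. The first 30 codons (90 bases) of the longest uninterrupted stretch with a glycine codon at 1 in every 3 positions are printed for the 4 collagen genes, 5′ to 3′, from GENCODE M21 transcripts of GRCm38, with glycine codons (those that start with GG) in capitals.
Col1a1, codons 168 to 197: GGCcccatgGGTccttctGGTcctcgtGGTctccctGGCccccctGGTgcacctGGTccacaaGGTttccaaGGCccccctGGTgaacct
Col1a2, codons 97 to 126: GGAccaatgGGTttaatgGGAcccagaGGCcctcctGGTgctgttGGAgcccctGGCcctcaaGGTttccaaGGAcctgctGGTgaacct
Col3a1, codons 164 to 193: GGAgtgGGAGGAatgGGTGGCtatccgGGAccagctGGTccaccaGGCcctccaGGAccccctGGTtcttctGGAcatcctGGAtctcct
Col12a1, codons 2805 to 2834: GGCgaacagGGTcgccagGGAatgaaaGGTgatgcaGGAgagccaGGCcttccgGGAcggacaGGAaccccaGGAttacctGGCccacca
The 3 fibrillar chains carried this repeat for 338, 339 and 344 triplets on end in Col1a1, Col1a2 and Col3a1, about 70% of the codons (69.8, 74.1 and 70.5%). Col12a1 had a longest run of 32 triplets, 3.13% of its 3065 codons. Glycine codons made up 26.8% of Col1a1, 27.8% of Col1a2, 28.3% of Col3a1 and 9.17% of Col12a1, and 5.30 to 8.38% of the other 4 genes.

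Footprints of 25 to 35 nt were selected, and repeated sequence could make such short reads ambiguous. Every 30-nt window of each coding sequence was therefore compared with the GENCODE transcripts of all other genes on both strands. No window of Col1a1, Col12a1, Dcn, Sparc, Postn or Gpc3 was shared, 1 of 4087 windows of Col1a2 was, and 37 of 4363 windows of Col3a1 (0.848%) were shared with the annotated gene Gm47302, whose exons overlap those of Col3a1. No window occurred more than once within its own coding sequence. Untranscribed genome was not searched.

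Col1a1 (ENSMUSG00000001506, chromosome 11, 94936224 to 94953042, plus strand, GRCm38) stood at 397 CPM in Ctrl 1 but 25.6 in Ctrl 2, with 40.6 and 35.9 CPM in cKO 1 and cKO 2. Ctrl 1 stood apart from the other 3 libraries, and both cKO libraries lay above Ctrl 2, so the groups overlapped. The underlying reads were 371, 16, 22 and 27 (here and in every series of 4 values, in the order Ctrl 1, Ctrl 2, cKO 1, cKO 2), so the value of each of the lower libraries is coarse.

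Col1a2 (ENSMUSG00000029661, chromosome 6, 4504814 to 4541544, plus strand) had 283, 86.5, 75.6 and 62.5 CPM, from 264, 54, 41 and 47 reads. Its levels in cKO were lower than either Ctrl level, but Ctrl 2 was much nearer to them than to Ctrl 1. Col3a1 (ENSMUSG00000026043, chromosome 1, 45311538 to 45349706, plus strand) had 307, 57.7, 95.9 and 82.5 CPM, from 287, 36, 52 and 62 reads. As for Col1a1, Ctrl 1 was the highest library and Ctrl 2 the lowest.

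Col12a1 (ENSMUSG00000032332, chromosome 9, 79598991 to 79718831, minus strand) stood at 1036, 699, 402 and 362 CPM. Both Ctrl libraries stood above both cKO libraries. In CPM the gap between Ctrl 1 and Ctrl 2 was wider than that between Ctrl 2 and cKO 1. On the log2 scale it was narrower (0.57 for Ctrl 1 over Ctrl 2, -0.80 for cKO 1 over Ctrl 2). Dcn (ENSMUSG00000019929, chromosome 10, 97479609 to 97518143, plus strand) had 698, 519, 306 and 184 CPM, and Gpc3 (ENSMUSG00000055653, chromosome X, 52272426 to 52613950, minus strand) showed 639, 713, 352 and 289 CPM. Gpc3 was the only one of the 8 with its highest level in Ctrl 2. Sparc (ENSMUSG00000018593, chromosome 11, 55394500 to 55423183, minus strand) reached 422, 383, 199 and 132 CPM, and Postn (ENSMUSG00000027750, chromosome 3, 54361109 to 54391037, plus strand), which had the most reads of the 8, had 1870.2, 1349, 902 and 594.5 CPM. In each of these 5 genes the groups did not overlap, and cKO 2 was the lowest library, as it was for Col1a2 and for 34.4% of all genes.

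**Figure D1:**
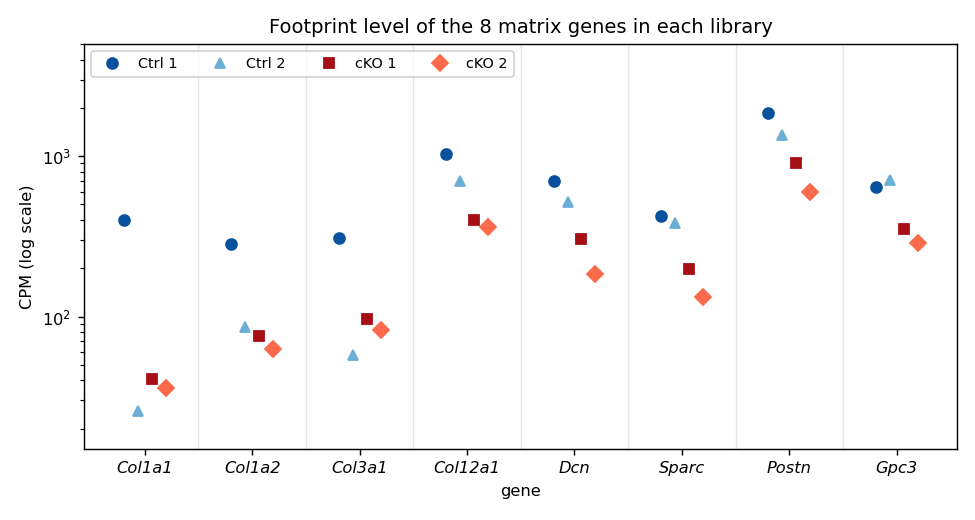
CPM of each gene (x axis) in each library on a log y axis, 1 point per library (dark blue circle Ctrl 1, light blue triangle Ctrl 2, dark red square cKO 1, orange diamond cKO 2). For Col1a1, Col1a2 and Col3a1 the Ctrl 1 point stands alone above the others, at 397, 283 and 307 CPM, whereas for the other 5 genes both Ctrl points lie above both cKO points.

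For 6 of the 8 genes the higher cKO level was still under the lower Ctrl level, an order seen in 34.1% of all genes, and the exceptions were Col1a1 and Col3a1. The limma test over all genes (Benjamini-Hochberg adjusted p under 0.05) called Col12a1, Dcn, Sparc, Postn and Gpc3 lower in cKO, against 0.3% of all genes, but these calls were among the values that chose the genes and nothing is read from them. The number called lower was 4 after centring (without Postn), beside 8 among all genes. It was 4 with edgeR and TMM (Col12a1, Dcn, Sparc and Col1a1), beside 13 among all genes. It was 7 with edgeR and library totals, beside 56, and 3 with DESeq2 (Col12a1, Dcn and Sparc), beside 5. It was 3 without Ctrl 1 (Dcn, Sparc and Gpc3), 8 without Ctrl 2 and 0 without either cKO library. On the log2(CPM + 1) scale, which slightly understates the change of low genes, the change in cKO was -1.34 ± 0.24 (SE) for Dcn, -1.31 ± 0.23 for Sparc, -1.16 ± 0.22 for Col12a1, -1.12 ± 0.23 for Postn and -1.08 ± 0.21 for Gpc3. The fibrillar chains had -1.39 ± 0.66 for Col1a1, -1.18 ± 0.36 for Col1a2 and -0.58 ± 0.44 for Col3a1, with larger errors. All 8 values were negative, as were 67.9% of all values, and their median was -1.17, beside a median of -0.24 over all genes.

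Group means hide how differently the Ctrl libraries behaved. Col1a1 averaged 212 ± 263 CPM in Ctrl and 38.2 ± 3.31 in cKO (SD, n = 2 each), so that the Ctrl SD exceeded the Ctrl mean. Sparc averaged 402 ± 27.7 CPM in Ctrl and 165 ± 47.8 in cKO, a difference larger than either SD. Gpc3 was similar to Sparc, at 676 ± 52.0 CPM and 320.5 ± 45.1.

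Set against Ctrl 2 library by library, the genes separated by how far Ctrl 1 departed. Ctrl 1 had 15.5 times the Col1a1 level of Ctrl 2 (95% exact interval 9.42 to 27.4), 5.33 times the Col3a1 level (3.76 to 7.76) and 3.27 times the Col1a2 level (2.43 to 4.47). These intervals rest on the reads of a pair of libraries and cover counting error only. For Col12a1, Dcn and Postn the same ratio was 1.48 (1.32 to 1.66), 1.35 (1.18 to 1.54) and 1.39 (1.28 to 1.51), and for Sparc and Gpc3, at 1.10 (0.936 to 1.30) and 0.897 (0.792 to 1.02), the interval included 1.

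For the fibrillar chains the cKO libraries departed less from Ctrl 2 than Ctrl 1 did. For Col1a1 the cKO 1 level was 1.58 times that of Ctrl 2 (0.794 to 3.23) and the cKO 2 level 1.40 times (0.728 to 2.78), and for Col1a2 they were 0.874 (0.568 to 1.34) and 0.722 (0.478 to 1.09), all with intervals that included 1. For Col3a1 they were 1.66 (1.07 to 2.62) and 1.43 (0.933 to 2.22). At this depth the intervals thus did not set cKO apart from Ctrl 2 for Col1a1 and Col1a2, again as a description only.

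For the other 5 genes both cKO libraries lay under Ctrl 2, with their whole intervals for counting error below it. The genes were chosen with these values in view and the intervals leave out variation between libraries, so this is a description and not a test. The cKO 1 level ran from 0.494 times that of Ctrl 2 for Gpc3 (0.415 to 0.587) to 0.669 times for Postn (0.597 to 0.748). The cKO 2 level ran from 0.344 times for Sparc (0.269 to 0.436) to 0.518 times for Col12a1 (0.443 to 0.604). Dcn had the widest gap between the cKO libraries, at 0.590 and 0.354 times the Ctrl 2 level.

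**Figure D2:**
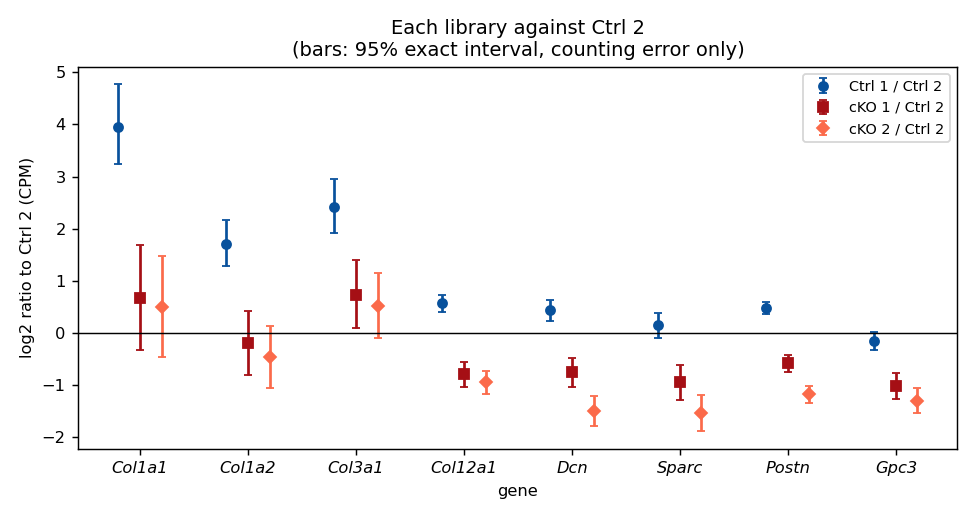
Log2 ratio of CPM in Ctrl 1 (blue circles), cKO 1 (dark red squares) and cKO 2 (orange diamonds) to Ctrl 2 for each gene, with bars for the 95% exact interval from read counts (counting error only). Ctrl 1 lies far above the zero line for Col1a1, Col1a2 and Col3a1, while from Col12a1 to Gpc3 both cKO points and their bars lie below it.

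Leaving out Ctrl 1 split the genes in the same way. Without it the log2 change was 0.56 for Col1a1 and 0.62 for Col3a1, the opposite sign from the 4-library values, and -0.33 for Col1a2. It was -1.24 for Sparc, -1.16 for Gpc3, -1.13 for Dcn, -0.88 for Postn and -0.87 for Col12a1, beside a median of -0.28 over all genes. These values then rest on a single Ctrl library, and the members were chosen knowing that Ctrl 1 was high in interstitial collagens.

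Together the 8 genes took 0.565% of the Ctrl 1 reads (95% exact, Clopper-Pearson, 0.550 to 0.581%) and 0.383% of the Ctrl 2 reads (0.368 to 0.399%). In cKO 1 they took 0.237% (0.225 to 0.251%), and in cKO 2 0.174% (0.165 to 0.184%). The fibrillar chains made up 17.5% of these reads in Ctrl 1 (16.5 to 18.5%) but 4.43% in Ctrl 2 (3.64 to 5.33%). Their share was 8.94% for cKO 1 (7.43 to 10.6%) and 10.4% for cKO 2 (8.79 to 12.2%). The make-up of the matrix footprints thus differed most between the Ctrl libraries, with the cKO libraries in between. The summed level of the other 5 genes was 4666 and 3662 CPM in Ctrl against 2162 and 1560 CPM in cKO, and that of the fibrillar chains was 988 and 170 CPM against 212 and 181 CPM.

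The genes differed widely in level once length was taken into account. Per kilobase of coding sequence, Postn stood highest in every library, at 769, 554, 371 and 244 CPM, with Dcn next at 658, 489, 288 and 173 CPM. Sparc and Gpc3 followed, in that order in all libraries but cKO 2 (145 against 166 CPM per kilobase), and Col12a1 lay below them at 39.3 to 113 CPM per kilobase. By this measure Postn ranked 87th of the listed genes in Ctrl 1 and 400th in cKO 2, and Col1a1 ranked 1425th and 7294th.

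The fibrillar chains were the lowest of the 8 in every library, and their order changed. Col1a1 was the highest of them in Ctrl 1 (91.2 CPM per kilobase of coding sequence, against 70.0 for Col3a1 and 68.7 for Col1a2). It was the lowest in the other libraries, at 5.88 in Ctrl 2 (Col3a1 13.1), 9.31 in cKO 1 (Col1a2 18.4) and 8.24 in cKO 2 (Col1a2 15.2). The ratio of Col1a1 to Col1a2 per coding length was 1.33 in Ctrl 1 (95% exact interval 1.13 to 1.56) but 0.280 in Ctrl 2 (0.149 to 0.496). It was 0.507 (0.287 to 0.871) for cKO 1 and 0.542 (0.325 to 0.889) for cKO 2. The Ctrl 1 interval did not meet those of the other 3 libraries, which overlapped one another. The ratio of Col1a1 to Col3a1 showed the same order of Ctrl 1 over the rest, at 1.30 (1.11 to 1.52) against 0.448, 0.426 and 0.439.

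**Figure D3:**
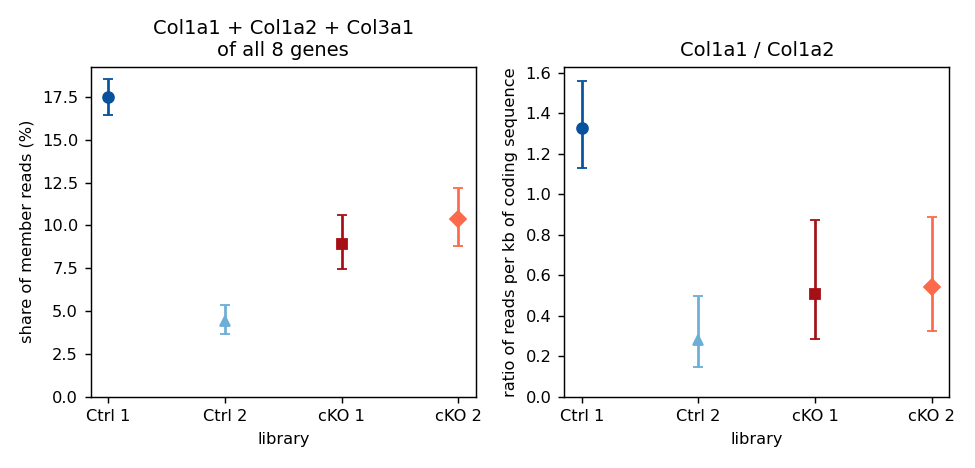
Left, the share of reads of the 8 genes that came from Col1a1, Col1a2 and Col3a1 in each library (percent); right, the ratio of Col1a1 to Col1a2 reads per kilobase of coding sequence. Points are single libraries and bars are 95% exact intervals for counting error only; Ctrl 1 is highest in both panels, at 17.5% and 1.33, and Ctrl 2 is lowest, at 4.43% and 0.280.

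Other genes of the matrix were taken from 7 lists chosen by function with earlier results of these data known, and 95 genes could be tested. By limma over all genes 1 of the 95 fell in cKO (0.3% of all genes), none rose (0.368% of all genes) and 94 did not pass, with 28 lower and 2 higher at an unadjusted p under 0.05. Among all 10327 genes 1114 were lower and 361 higher at that threshold, which is the background for the unadjusted list counts below. With edgeR on the recovered reads and TMM scaling 2 of the 95 were called lower (Thbs2 and Eln), with library totals 6 and with DESeq2 none. Among all genes these tools called 13, 56 and 5 lower, in the same order. None of the 95 was called higher by any of these tools. The median log2 change of the 95 genes was -0.48 beside -0.24 over all genes (-0.27 beside -0.037 after each library was centred on its median), and in 47 of 95 genes the groups did not overlap with cKO the lower (34.1% of all genes). The gene that fell was Tnc, tenascin C, a matrix glycoprotein that periostin binds (676, 750, 308 and 446 CPM; log2 change -0.94 ± 0.22, SE; limma adjusted p = 0.0433). Tnc did not pass after centring (limma adjusted p = 0.129) or with edgeR and TMM (edgeR adjusted p = 0.186). With 1 library left out its log2 change ran from -1.21 to -0.67, and the call did not hold in every such fit. Its exons overlap those of the annotated gene 8030451A03Rik.

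Among 8 other interstitial collagens, none passed limma over all genes, with 3 lower and 0 higher at an unadjusted p under 0.05. Col14a1, another fibril-associated collagen, had 407, 226, 225 and 157 CPM. Col5a2, a chain of type V collagen that is built into type I fibrils, had 179, 107, 75.6 and 113 CPM. Ctrl 1 was the highest library for all 8, as it was for 7 of the 8 genes described and for 30.1% of all genes. Among 8 collagens of basement membranes and epithelia it was the highest for 2. None of these 8 passed either, with 3 lower and 0 higher at an unadjusted p under 0.05. Col17a1, the hemidesmosome collagen of basal keratinocytes, had 1297, 1379, 707 and 791 CPM (log2 change -0.84 ± 0.20, SE; limma adjusted p = 0.0531). Col4a1, a chain of type IV collagen, had 380.3, 437, 356 and 414 CPM, with overlapping groups. The difference between these collagen lists was not tested.

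Of 23 genes that modify, fold, cut or crosslink collagen, none passed limma (3 lower and 1 higher at an unadjusted p under 0.05), and their median log2 change of -0.33 was near that of all genes. P4hb, a subunit of prolyl 4-hydroxylase that also acts as protein disulfide isomerase, had 1183, 1335, 1548 and 2052 CPM, and Ppib, a prolyl isomerase that works on procollagen, had 242, 277, 214 and 226 CPM. Of 13 other proteoglycans none passed (4 lower and 0 higher unadjusted). The syndecan Sdc1 had 593, 633, 797 and 807 CPM, with the cKO libraries above the Ctrl libraries, and Sdc4 had 344, 351, 362 and 293 CPM, with overlapping groups. Of 28 matricellular and fibre proteins 1 fell (Tnc) and 27 did not pass (13 lower and 0 higher unadjusted), and the median change of the list was -0.61 on the log2 scale (-0.47 when Ctrl 1 was left out).

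Of 7 collagen receptors none passed limma (1 lower and 1 higher at an unadjusted p under 0.05). Cd44, a receptor for hyaluronan that also binds collagen, had 1696, 1698, 1647 and 1656 CPM, and Itgb1, the beta chain of the collagen-binding integrins, had 618, 423, 472 and 289 CPM. Of 8 matrix proteases and inhibitors none passed (1 lower and 0 higher unadjusted). Mmp14, a membrane-bound metalloproteinase that cleaves collagen, had 326, 389, 266 and 246 CPM, and Timp3, a metalloproteinase inhibitor, had 72.8, 76.9, 46.1 and 69.2 CPM. The groups of Mmp14 did not overlap, with cKO the lower, and those of Timp3 did not either.

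Among 6650 genes with at least 50 reads in all, 2.38% had a Ctrl 1 level over 2 times that of Ctrl 2. Of the 8 genes described these were Col1a1, Col1a2 and Col3a1, which were chosen with this known. Of the 95 other matrix genes 68 had 50 reads or more: 6 were over 2 times (Col6a2, Col6a3, Bgn, Fbn1, Fbn2 and Eln, named after their values were seen), 2 were under 0.5 times, and the median ratio was 1.00, beside 0.966 over all 6650. A second ratio, Ctrl 1 to the median of the other 3 libraries, is also high for genes that are only lower in cKO, such as Sparc. Col1a1 ranked 2nd of the 6650 by this second ratio (log2 3.47), Col1a2 11th and Col3a1 12th (both 1.90), followed at a distance by Col12a1 (55th, 1.36), Dcn (106th), Sparc (158th), Postn (178th) and Gpc3 (348th). Of the other matrix genes the highest were Eln, elastin (ranked 1st, log2 4.21), the thrombospondin Thbs2 (4th, 2.50), the fibrillin Fbn1 (9th, 1.99), the small proteoglycan Bgn (14th, 1.76) and Col6a1, a chain of beaded filaments (27th, 1.58). Eln had 49.3, 6.41, 1.84 and 2.66 CPM, from only 46, 4, 1 and 2 reads, and Thbs2 had 39, 15, 4 and 3 reads, so their ratios are coarse. Fbn1 had 95.3, 32.0, 24.0 and 19.9 CPM. The exons of Eln overlap Gm30003, and those of Fbn1 overlap Gm9913. Eln, Thbs2, Fbn1, Bgn and Col6a1 were picked by this ratio, so it is given without a test.

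**Figure D4:**
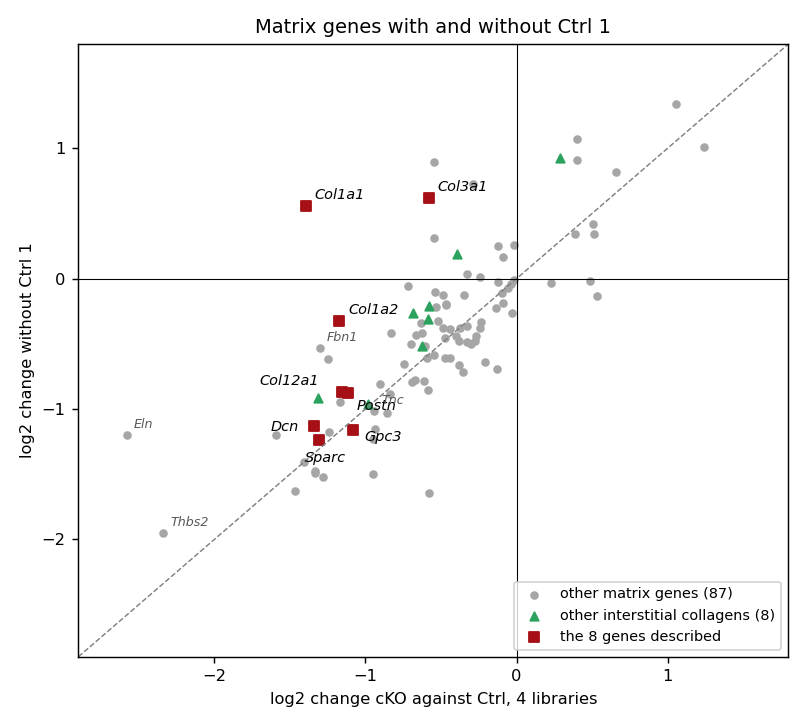
Log2 change in cKO from all 4 libraries (x axis) against the value without Ctrl 1 (y axis) for the 8 genes described (red squares), 8 other interstitial collagens (green triangles) and the remaining matrix genes (grey points), with a dashed line of equality. Col1a1 and Col3a1 move from -1.39 and -0.58 to 0.56 and 0.62. Dcn, Sparc, Postn, Gpc3 and Col12a1 lie between -1.34 and -1.08 with all 4 libraries and between -1.24 and -0.87 without Ctrl 1.

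The genes whose profile over the 4 libraries was most like that of Col1a1, by root mean square difference of centred log2 values among genes with at least 100 reads, were Fbn1 (0.836), Rpf1 (0.922), Bgn (0.953), Alad (0.970) and Fbn2 (0.987). For Dcn the nearest were Pcna, the DNA polymerase clamp (0.0668), Fxr1, an RNA-binding protein (0.106), Hnrnpll (0.109), Antxr1, a collagen-binding receptor (0.137), and Mob1a (0.149). The profiles rest on 4 libraries of unequal depth, so the likeness is a description only.

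Markers of other cells were compared beside these values. The fibroblast marker sum was higher in Ctrl 1 than in Ctrl 2 (1026 against 796 CPM), and the cKO libraries lay between and below them (900 and 576 CPM). The sum includes Col6a3, with 301, 133, 188 and 122 CPM. Col6a3 is also among the other interstitial collagens above. In CPM its gap between Ctrl 1 and Ctrl 2 was the widest of these markers. As a ratio the gaps of Dlk1 and Lum were wider. The sum is thus not independent of the matrix genes. The highest fibroblast markers per coding length were Vim, an intermediate filament protein, with 538, 458, 470.4 and 255 CPM, and Dpp4, a surface peptidase, with 99.6, 125, 184 and 162 CPM. None of the 8 fibroblast markers passed limma (Vim adjusted p = 0.341, Dpp4 0.241), and 4 of them were highest in Ctrl 1 (30.1% of all genes). Among them Dlk1 had 34.3 CPM in Ctrl 1 against 1.33 to 4.81 CPM elsewhere (32, 3, 2 and 1 reads). Lum, which is also a matrix proteoglycan, had 18.2 against 1.60 to 3.99 CPM (17, 1, 2 and 3 reads). Thy1, S100a4 and Pdgfra were instead highest in Ctrl 2, at 33.6, 24.0 and 16.0 CPM against 13.9, 9.64 and 11.8 CPM in Ctrl 1. These genes were named after their values were seen. The part of the fibroblast markers in the Ctrl 1 excess was not tested.

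Of the other marker sums only that of endothelium, with 1 marker, was highest in Ctrl 1. Red blood cell markers were highest in cKO 1 (528 CPM, against 121, 81.7 and 99.7 in Ctrl 1, Ctrl 2 and cKO 2), led by Hba-a1 and Hba-a2. Leukocyte markers, led per coding length by Cd74 and C1qa, summed to 613, 1008, 1013 and 560.0 CPM, and melanocyte markers, led by Dct and Pmel in the same way, to 882, 1577, 1057 and 1045 CPM, so that Ctrl 1 was the lowest library for melanocyte markers. Markers of pericytes and smooth muscle (Notch3 and Cspg4, 2 of 9) summed to 426, 550, 598 and 569 CPM and those of Schwann cells (Erbb3 and Mbp, 2 of 7) to 338, 389, 398 and 412 CPM. The Schwann cell sum was almost all Erbb3 (333 to 402 CPM, against 3.69 to 10.6 CPM for Mbp). Which cells the reads of these 2 lists came from was not tested. Few markers of endothelium (Eng, 2.66 to 15.0 CPM), skeletal muscle (Actc1, 1.07 to 3.20 CPM) and fat (Lpl and Pparg, 11.1 to 41.7 CPM together) could be analysed.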

How the data were processed

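Per the labels' protocols, cells were lysed with cycloheximide, lysates were digested with RNase I and fragments of 25 to 35 nt were sequenced; fastp, HISAT2, HTSeq and GRCm38 are named in the submitters' processing notes with no version, and no source used here gives the counted feature or strand setting. In the deposited table the values are CPM per gene, scaled by the authors to 1000000 over the 10327 listed genes. Every value (100%, tolerance 1e-06 reads) was a whole multiple of 1 read, so reads were recovered, and the table's WT1 and WT2 columns were read as Ctrl replicates 1 and 2. Symbols, positions and coding lengths (APPRIS principal transcript, else the longest) came from GENCODE M21; 10327 of 10327 identifiers matched.

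limma 3.58.1 (R 4.3.3) with a mean-variance trend was fitted to log2(CPM + 1) over all genes with group as the only term, and p-values were adjusted by Benjamini-Hochberg (threshold 0.05). It called 31 genes lower and 38 higher in cKO. edgeR 4.0.16 and DESeq2 1.42.0 on recovered reads, other pseudocounts, filters, centring, a replicate block and leaving out each library were alternatives. With 2 against 2 libraries an exact permutation test cannot go below p = 0.333, so none was used. The scripts were tested on simulated data. Intervals are 95% exact (Clopper-Pearson) and cover counting error only.

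Members and lists were chosen with earlier results of these data known. Besides all 8 members, the naming rule takes for each matrix list up to 4 called genes, or the 2 with the highest level per coding length; the 5 matrix genes highest in Ctrl 1 against the other libraries; the 2 most abundant of each marker list; and the 5 genes nearest in profile to Col1a1 and to Dcn. Genes given as called by other tools lie outside it.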

Additional observations from a re-analysis of the deposited data

How the results depend on the processing

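With 13 alternatives, the log2 change of Col12a1, Dcn, Sparc, Postn and Gpc3 stayed negative (-1.71 to -0.82 over all 5), and that of Col1a2 ran from -2.02 to -0.33. Col1a1 ran from -3.35 without Ctrl 2 to 0.56 without Ctrl 1, and Col3a1 from -1.78 to 0.62 under the same settings. Col1a1 stood at -2.28 with edgeR and TMM, against -1.39 in the main test. Gpc3 stood at -0.87 after centring, -0.82 with edgeR and TMM and -0.84 with DESeq2. Centring raised the log2 change of every gene by the same amount, to -1.13 for Dcn, -1.10 for Sparc, -0.95 for Col12a1 and -0.91 for Postn. With edgeR and TMM and with DESeq2, Dcn, Sparc, Col12a1 and Postn were likewise less negative than in the main test. Scaling moved the median of all genes from -0.24 to -0.037 (centring), -0.014 (DESeq2) and 0.0018 (edgeR, TMM).

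All genes called lower and higher numbered 31 and 38, against 8 and 105 after centring, 9 and 14 among genes with a mean of 10 CPM or more, 13 and 163 with edgeR and TMM, 56 and 62 with edgeR and library totals, and 5 and 87 with DESeq2. With 1 library left out they ran from 0 to 44 lower and from 0 to 104 higher: 44 and 20 without Ctrl 1, 35 and 104 without Ctrl 2, and 0 and 0 without either cKO library, where 715 or 758 were lower and 225 or 170 higher at an unadjusted p under 0.05. A lone library of a group is there assumed to vary like the others.

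Other matrix genes called lower numbered 1, against 0 after centring, with the 10 CPM filter and with DESeq2 (16, 27 and 8 at an unadjusted p under 0.05), 2 with edgeR and TMM, 6 with edgeR and library totals, and 0 to 5 with 1 library left out. None was called higher in any of these. A replicate block (library number as a term) gave 582 genes lower and 257 higher, and 23 other matrix genes lower and 1 higher (P4hb). No label pairs equally numbered libraries (their deviations from the group means correlated at 0.195 across genes), so this count is not used.

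Small changes turned sign with scaling: Cd44 to 0.17 after centring, 0.21 with edgeR and TMM and 0.20 with DESeq2; Col4a1 to 0.12, 0.17 and 0.16, and with 1 library left out from -0.20 to 0.020 (0.013 without Ctrl 2, 0.020 without cKO 1); Sdc4 to 0.11, 0.16 and 0.15, and with 1 library left out from -0.25 to 0.058 (without cKO 2); and Ppib to 0.021 with edgeR and TMM and 0.0064 with DESeq2. None of these passed in the main test. Centring adds the same amount to the log2 change of every gene, and it moved the median of all genes from -0.24 to -0.037. That median also rose with DESeq2 (to -0.014) and with edgeR and TMM (to 0.0018). The cause of the turns with 1 library left out was not tested. Among the members, depth limits the fibrillar chains most, with 16 to 62 reads in each library other than Ctrl 1.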
